A study of Mus musculus with 198 samples.

Results

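The enhancers described here are the 2543 enhancers with the lowest CG methylation in the study, out of 32600 that have a value for both marks in all 8 deeply sequenced animals in cortex (7.80%). They were chosen by measured values: an enhancer was taken when its CG methylation, averaged over the 8 animals, was below 40%. Of 32614 enhancers in the table, 14 lacked an animal value and were not used; 3 of these were below 40% on the values they had, and 4 had no CG value at all. The remaining 30057 enhancers with complete values are called the other enhancers.

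The study asked what loss of 1 copy of Dnmt3a does to DNA methylation in the mouse brain, by whole-genome bisulfite sequencing of genomic DNA. Of its 198 samples, the 8 used here are deep libraries of cortex from C57BL/6J mice aged 8 weeks. The mice were labelled either as carrying a heterozygous knockout of Dnmt3a (hKO, animals 694, 046-2, 651-2 and 047-1) or as wild type (WT, animals 695, 046-1, 651-3 and 047-2). Each genotype held 2 males (the first 2 of each list) and 2 females. The labels describe littermates in general but name neither the deleted part of the gene nor the litters, and the methylation values do not check the genotype or the tissue. The labelled coverage was 6.4 to 7.8 genome equivalents per animal, and the number of cytosines behind each enhancer's value is unknown. Only the protocol text of the females names a second sequencing instrument, so sex and instrument cannot be told apart; both are balanced over genotype. Cortex was profiled in bulk, so a shift in the mix of cells and a change within cells cannot be told apart.

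DNMT3A is a DNA methyltransferase that adds methyl groups to unmethylated DNA. In neurons it deposits most methylation at CA dinucleotides (mCA), which accumulates after birth, whereas methylation at CG dinucleotides (mCG) is copied at each cell division by DNMT1. Enhancers are distal elements that bind transcription factors, and low mCG is a known feature of enhancers in use. All levels below are percentages of cytosines called methylated, averaged over enhancers with equal weight, and differences are in percentage points, hKO minus WT.

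The low-mCG enhancers of hKO cortex held 55.6% of the mCA of those of WT cortex. The WT animals 695, 046-1, 651-3 and 047-2 held 1.67%, 1.61%, 2.21% and 1.74% mCA. The hKO animals 694, 046-2, 651-2 and 047-1 held 0.963%, 0.952%, 1.19% and 0.918%. Every hKO animal lay below every WT animal. The means were 1.01% ± 0.124 in the hKO animals and 1.81% ± 0.276 in the WT animals (SD, n = 4 each), a difference of -0.803 points (SE 0.151). In the exact permutation test (two-sided), p was 0.0286, which is the lowest that the 70 ways of splitting 8 animals can reach, and 0.0457 after Benjamini-Hochberg adjustment over the 8 comparisons of this kind (0.0476 over the 5 that do not test mCG). With shared title numbers taken as pairs, the exact permutation p was 0.125, the lowest that 16 arrangements can reach. Within sexes, hKO males held 0.957% and WT males 1.64%, and hKO females held 1.05% and WT females 1.98%.

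mCG, the mark that chose these enhancers, also read lower in hKO. The choice used these same 8 values, so level and genotype difference are given as a description, with no test. The WT animals 695, 046-1, 651-3 and 047-2 held 32.5%, 31.6%, 35.9% and 33.0%, and the hKO animals 694, 046-2, 651-2 and 047-1 held 28.3%, 27.3%, 30.03% and 27.8%. The 2 genotypes did not overlap. The means were 28.3% ± 1.21 in the hKO animals and 33.2% ± 1.85 in the WT animals (SD, n = 4 each), a difference of -4.90 points (SE 1.11). hKO cortex thus held 85.2% of the WT mCG level in these enhancers.

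**Figure D1:**
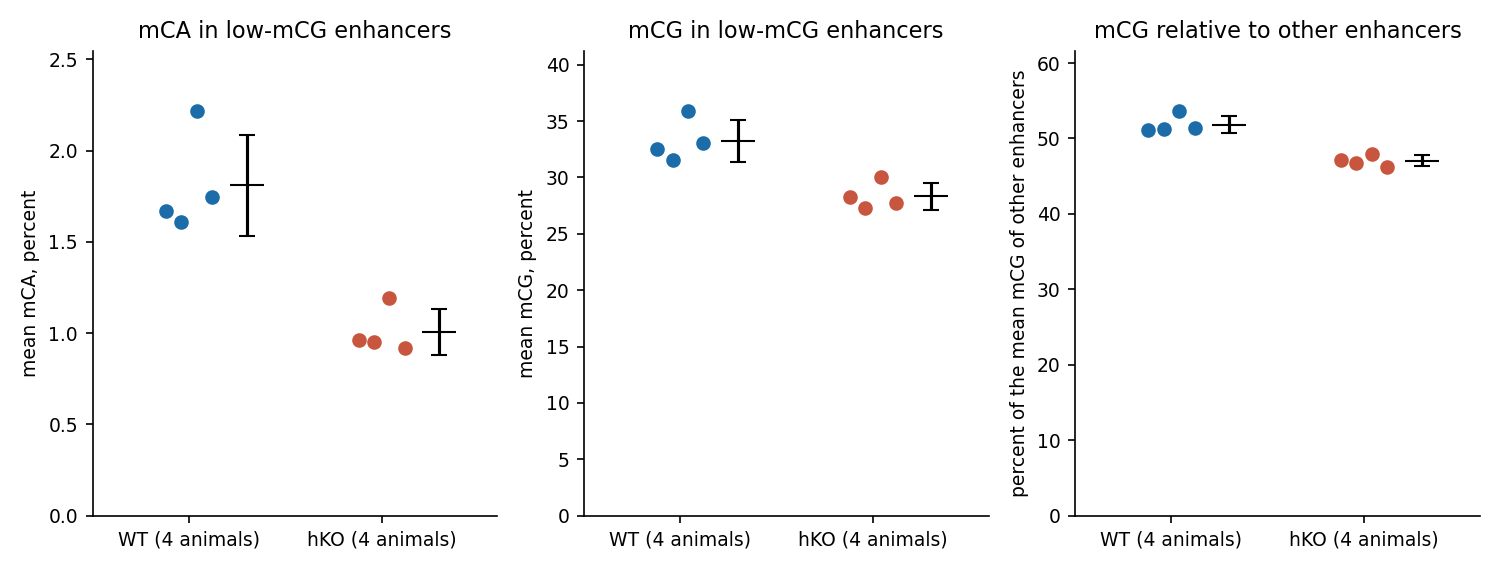
Mean mCA (left), mean mCG (middle) and mean mCG as a percentage of that in the other enhancers (right) over the 2543 low-mCG enhancers. Each point is 1 animal in the order 695, 046-1, 651-3, 047-2 (WT) and 694, 046-2, 651-2, 047-1 (hKO), and the bars give mean ± SD. In all 3 panels the 4 hKO animals lie below the 4 WT animals; the right panel reads 46.22% to 48.0% in hKO and 51.1% to 53.6% in WT.

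Compared with the other enhancers, the low-mCG enhancers started from less mCA and lost fewer points of it, while no difference in the share lost was shown. The other enhancers held 1.34% ± 0.136 mCA in the hKO animals and 2.41% ± 0.287 in the WT animals (SD, n = 4 each), so hKO stood at 55.8% of WT there. Within each WT animal, mCA of the low-mCG enhancers minus that of the others was -0.620 to -0.588 points, and within each hKO animal -0.356 to -0.326 points. This gap differed between genotypes by 0.263 points (SE 0.00906; exact permutation p = 0.0286, adjusted 0.0457). As a share, mCA in low-mCG enhancers was 74.7% ± 1.54 (SD, n = 4) of that in the others in hKO and 74.8% ± 2.34 (SD, n = 4) in WT. That difference of -0.147 points (SE 1.40) was within the spread of the animals (exact permutation p = 0.914), and its sign turned when WT 651-3 was left out (0.955).

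For mCG the shares read apart; they too come from the values that chose the enhancers and carry no test. The other enhancers held 60.2% ± 1.78 mCG in the hKO animals and 64.1% ± 2.19 in the WT animals (SD, n = 4 each), or 94.0% of WT, a difference of -3.84 points. mCG in low-mCG enhancers was 51.1%, 51.2%, 53.6% and 51.5% of that in the other enhancers in WT 695, 046-1, 651-3 and 047-2. It was 47.11%, 46.8%, 48.0% and 46.22% in hKO 694, 046-2, 651-2 and 047-1. The shares did not overlap between genotypes. The difference in share was -4.82 points (SE 0.693). In points, the genotype difference of the low-mCG enhancers minus that of the others was -1.06 (SE 0.433).

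The mCG values depend on which animals choose the enhancers: by construction, enhancers taken for low values in some animals read low in those animals. Choosing on the 4 WT animals alone gave 2072 enhancers, of which 1967 are among the 2543. In these the mCG difference was -2.73 points, the difference in share was -1.31 points, and the difference in points from the other enhancers turned to 1.27. Their mCA difference was -0.744 points (exact permutation p = 0.0286, adjusted 0.0571 over the 8 comparisons and 0.0476 over the 5 that do not test mCG). Choosing on the 4 hKO animals gave 3366 enhancers and an mCG difference of -6.99 points. Choosing in one sex and measuring in the other keeps the choice apart from the measured animals. Enhancers chosen on the males of both genotypes had, in females, 84.7% of WT mCG in hKO, against 93.6% for the rest. Enhancers chosen on WT males alone had 86.2% in females, against 93.5%. Chosen on females and measured in males, the shares were 86.0% against 94.5%, and chosen on WT females alone 87.3% against 94.4%. In all 4 of these choices the low-mCG enhancers kept a smaller share of WT mCG than the rest, from a lower level. In points, the differences in females were -5.68 against -4.19 (chosen on males) and -5.06 against -4.27 (chosen on WT males). In males they were -4.61 against -3.43 (chosen on females) and -4.08 against -3.48 (chosen on WT females). These are the mCG values that the choice did not use; with 2 animals against 2, no exact p can go below 0.333.

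Single enhancers were tested with limma on the fractions, with p-values adjusted over all 32600 enhancers and called at an adjusted p under 0.05. mCA was lower in hKO in 795 of the 2543 low-mCG enhancers (31.3%), against 48.9% of all enhancers. It was higher in 2 (0.0786%), against 0.00613% of all enhancers; these are the 2 higher calls among the 32600, and there were none when WT 695, hKO 046-2 or hKO 047-1 was left out. Each hKO animal was below each WT animal in 568 low-mCG enhancers (22.3%), against 41.3% of all. The reverse held in 1, against 0.00307% of all, and that enhancer did not pass limma. The hKO mean was lower in 2393 (94.1%), against 97.8% of all enhancers, and it was lower in both sexes in 1986 (78.1%), against 89.5% of all.

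The count of 795 moved strongly with single animals: it was 317 without hKO 046-2, 368 without hKO 047-1, 376 without hKO 694 and 449 without WT 651-3. The share of all enhancers called was not taken for these fits. With each library's median over all enhancers subtracted, which removes the general shift of -0.945 points, 1 low-mCG enhancer was called lower (0.0393%) and 41 higher (1.61%), against 44 (0.135%) and 258 (0.791%) of all enhancers. Relative to the library medians, upward calls outnumbered downward ones in the low-mCG enhancers and in all enhancers. The subtraction takes the same points from every enhancer of a library. The low-mCG enhancers started from less mCA and differed by only -0.803 points, so their higher calls are in part built in. The 795 called enhancers had a median WT mCA of 2.33%, and the 1748 not called lower had 1.39%. The median SD between WT animals was 0.656 points in the called low-mCG enhancers and 0.641 in the rest of them. The calls used these same WT values, so a higher WT level in the called enhancers is in part built in. Across all low-mCG enhancers the median SD of WT mCA was 0.644 points, against 0.587 in the other enhancers. Simulations with the real spread, in which mCA of every enhancer was halved, called 1197 of the 2543 low-mCG enhancers, and an isolated halving was recovered in 5 of 100. A halving is a larger fall than the one measured, where hKO mCA was 55.6% of WT. The simulated spread was also drawn separately for each enhancer, without shifts of whole libraries. The simulation therefore does not show how many calls the measured fall could give.

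No low-mCG enhancer was called for mCG by limma, lower or higher, and neither was any of the 32600 (0%). At an unadjusted limma p under 0.05, mCG was lower in 414 low-mCG enhancers (16.3%, against 12.8% of all) and higher in 11 (0.433%, against 0.632% of all). The hKO mean was lower in 2056 (80.8%), against 78.6% of all enhancers, and lower in both sexes in 1410 (55.4%), against 54.6% of all. Each hKO animal was below each WT animal in 269 (10.6%), against 8.25% of all enhancers. The reverse held in 5 (0.197%), against 0.230% of all. At a single enhancer the median SD between animals was 7.00 points in WT and 5.88 in hKO. In simulations 1 of 100 enhancers lowered to 80% of its mCG was recovered, and 93 of 100 raised 2.5-fold. With every enhancer lowered to 80%, 526 of the 2543 were called. That fall is larger than the one measured, where hKO mCG was 85.2% of WT here and 94.0% in the other enhancers. The simulation therefore does not show how many calls the measured falls could give.

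The ratio of hKO to WT was also taken per enhancer. The median low-mCG enhancer kept 56.01% of its WT mCA (interquartile range 45.1% to 69.7%), and the median of the other enhancers was 55.96% (48.6% to 64.7%). For mCG the median low-mCG enhancer kept 84.9% (interquartile range 74.0% to 96.4%), and the median of the other enhancers was 94.3% (89.0% to 99.1%). The medians thus lay close together for mCA and apart for mCG, and the low-mCG enhancers had the wider spread in both marks.

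**Figure D2:**
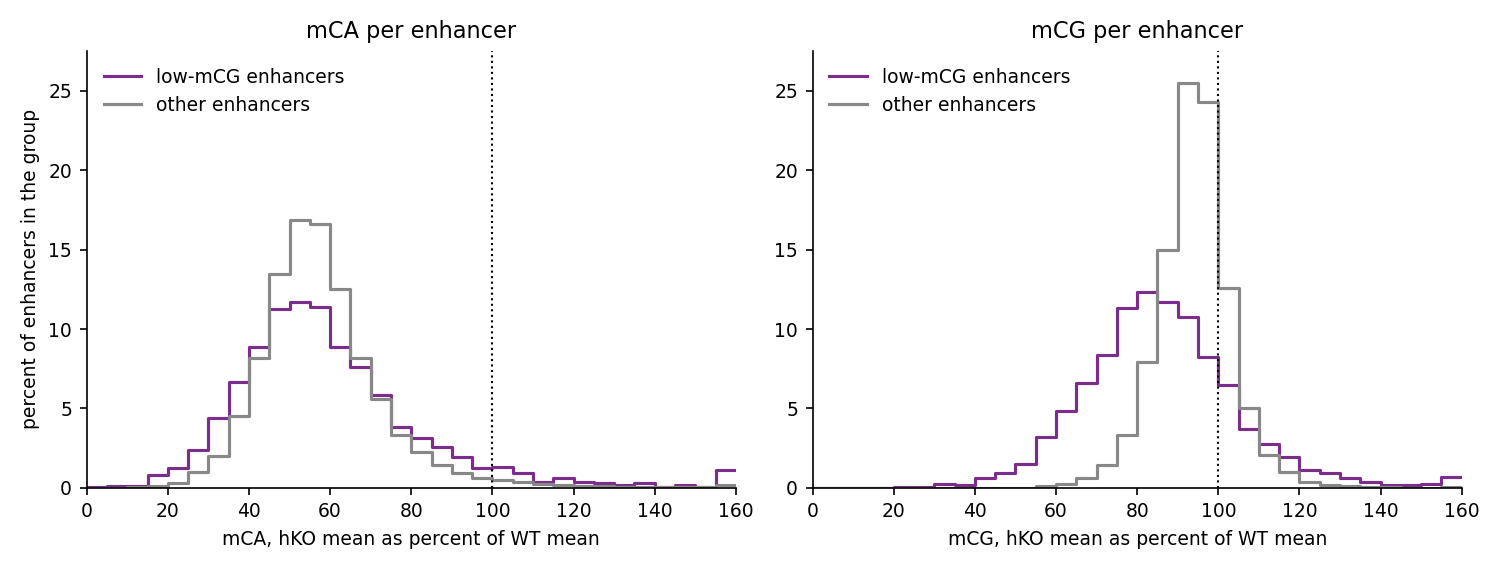
Distribution over enhancers of the hKO mean as a percentage of the WT mean, for mCA (left) and mCG (right), in bins of 5 percentage points. The vertical axis gives the percentage of each group, the last bin holds all values of 155% or more, and the dotted line marks equal levels. For mCA the medians are 56.01% and 55.96%; for mCG the median is 84.9% for the low-mCG and 94.3% for the other enhancers.

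Among themselves the low-mCG enhancers ranged from 1.44% to 39.999% in mean mCG (median 33.1%), with most near the upper end: 994 lay between 35% and 40%, and 17 below 5%. mCA went with this level in both genotypes. In the 17 enhancers below 5% mCG, mCA was 0.548% ± 0.131 in the hKO animals and 0.883% ± 0.332 in the WT animals (SD, n = 4 each), and the animals of both genotypes overlapped. In the 994 between 35% and 40% it was 1.09% ± 0.132 in the hKO animals and 2.00% ± 0.285 in the WT animals (SD, n = 4 each), and the animals did not overlap. From the lowest to the highest of the 8 bins of 5 points, hKO mCA was 62.1%, 62.8%, 59.6%, 59.9%, 56.5%, 56.4%, 55.4% and 54.4% of WT. Above 40% mCG it stayed between 55.6% and 56.02% in every bin of 10 points up to 90%.

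The mCG ratio ran the other way. From the lowest to the highest bin hKO mCG was 73.6%, 66.6%, 74.2%, 81.3%, 79.9%, 82.1%, 86.6% and 87.0% of WT. The proportional mCG deficit was largest in the bins with the least mCG, and above 40% the ratio went on from 89.4% to 97.5%. In points the mCG difference was -1.005 below 5%, -3.15 between 5% and 10%, and between -3.66 and -5.44 in the bins from 10% to 40%. These bins were cut on the values they show and are a description. The share of mCA values listed at exactly 0 was 16.9% in the lowest bin and 2.31% in the highest, and the part of this in the mCA ratios was not tested. Incomplete conversion, read below at CC sites as 0.267% in hKO and 0.362% in WT, was not subtracted in these bins. A constant background weighs most where mCA is lowest, and its part in the mCA ratios was not tested either.

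**Figure D3:**
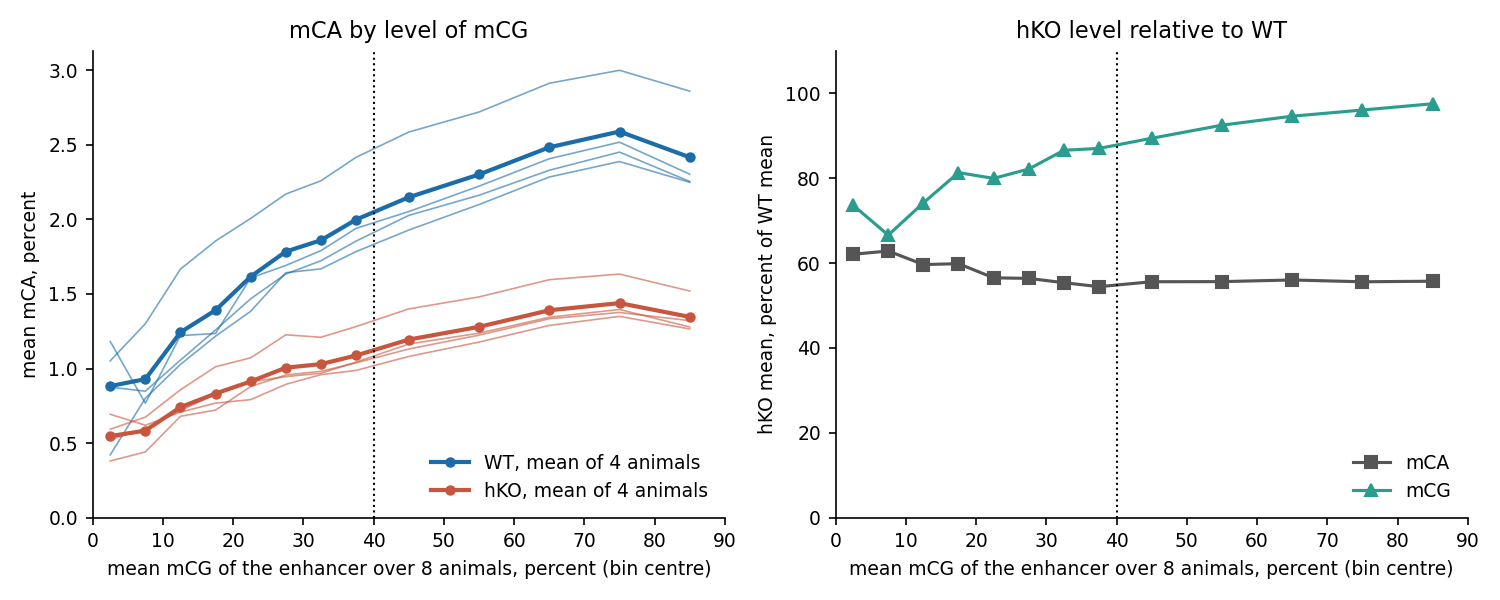
Left: mean mCA against the mean mCG of the enhancer over the 8 animals, in bins of 5 points up to 40% and of 10 points above; thin lines are single animals and thick lines the mean of 4. Right: hKO mean as a percentage of the WT mean for mCA and mCG in the same bins; the dotted line is the 40% threshold, and the 16 enhancers above 90% are not drawn. WT mCA is 0.883% in the lowest bin and 2.00% in the last bin below the threshold, against 0.548% and 1.09% in hKO.

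The threshold lies on a continuum. The 100 enhancers just inside it (mean mCG 39.6% to 39.999%) held 1.10% mCA in hKO and 2.06% in WT, and 37.3% and 42.3% mCG. The 100 just outside it (40.002% to 40.4%) held 1.19% and 2.17% mCA, and 37.3% and 43.1% mCG. The values on both sides were close.

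The coupling of both marks across the low-mCG enhancers was weak, and its slope in points was smaller in hKO. The slope of an animal's mCA on the mean mCG of the enhancer, in points of mCA per 10 points of mCG, was 0.298, 0.298, 0.307 and 0.305 in WT 695, 046-1, 651-3 and 047-2. It was 0.119, 0.152, 0.156 and 0.113 in hKO 694, 046-2, 651-2 and 047-1. The genotypes did not overlap, and the difference was -0.167 (SE 0.0114, exact permutation p = 0.0286, adjusted 0.0457). The slope is taken along the mean mCG that chose the enhancers, and a lower mCA level alone makes a slope in points smaller. The test therefore does not show a weaker coupling apart from that level. The mCA level itself also differed, so the slope was divided by the animal's own mean mCA; it was then 13.4% ± 1.72 (SD, n = 4) of that mean per 10 points in hKO and 16.9% ± 2.08 (SD, n = 4) in WT. The animals overlapped, and this relative difference of -3.50 points (SE 1.35) did not pass (exact permutation p = 0.0571, adjusted 0.0762). Of 16 alternative settings it passed in 1, at -3.98 points, without the 611 enhancers with an mCA of 0 in any animal (adjusted exact permutation p = 0.0381). That filter used mCA itself, and 406 of the 611 had a 0 in hKO 047-1. The difference was -5.26 points at a threshold of 30% and -0.847 at 50% (adjusted exact permutation p = 0.257 and 0.359). Chosen on the 4 WT animals it was -1.97 (adjusted exact permutation p = 0.196).

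Within single animals, Pearson's r of mCA and mCG over the 2543 enhancers was 0.248, 0.309, 0.258 and 0.249 in WT 695, 046-1, 651-3 and 047-2. In hKO 694, 046-2, 651-2 and 047-1 it was 0.133, 0.221, 0.158 and 0.128. Spearman's rho ran from 0.260 to 0.314 in WT and from 0.135 to 0.220 in hKO. Over the other enhancers r ran from 0.143 to 0.190 in WT and from 0.0661 to 0.0977 in hKO, lower in every animal than over the low-mCG enhancers. These correlations are across regions of 1 library that share its reads, and enhancers are not replicates. With the marks taken from different animals, r over the low-mCG enhancers was 0.247 (mCA of males, mCG of females) and 0.184 (mCA of females, mCG of males), against 0.263 for the means of all 8.

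The genotype differences of the marks were coupled less when they came from different animals. Over the low-mCG enhancers r between the mCA difference and the mCG difference was 0.241 on all 8 animals, and 0.229 over the other enhancers. Within males it was 0.233 and within females 0.201, but it was 0.0659 between mCA of females and mCG of males and 0.0797 between mCA of males and mCG of females. The mCG difference itself agreed little between the sexes (r = 0.101), and the mCA difference more (r = 0.282). Within a sex both differences come from the same libraries, and most of that r was not seen between sexes.

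Sorting the low-mCG enhancers into 5 equal groups by their mCG change in one sex and reading mCA in the other shows the size of what remains. Sorted in males, the group with the largest mCG fall (-15.1 points) held 1.11% mCA in hKO females and 2.10% in WT females. The group with an mCG rise (6.27 points) held 0.981% and 1.80%. The mCA difference was -0.997 points in the first and -0.815 in the last, and hKO females kept 52.6% and 54.6% of WT mCA. Sorted in females and read in males, the differences were -0.775 and -0.617 points, and hKO males kept 57.002% and 58.7%. mCA was lower in hKO in all 5 groups under both sortings. The group whose mCG had risen in the sorting sex had lower mCG in hKO in the sex that was read, by -4.15 points in females and -2.95 in males. The WT level went further with the mCA difference: r between WT mCA of males and the mCA difference of females was -0.440.

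**Figure D4:**
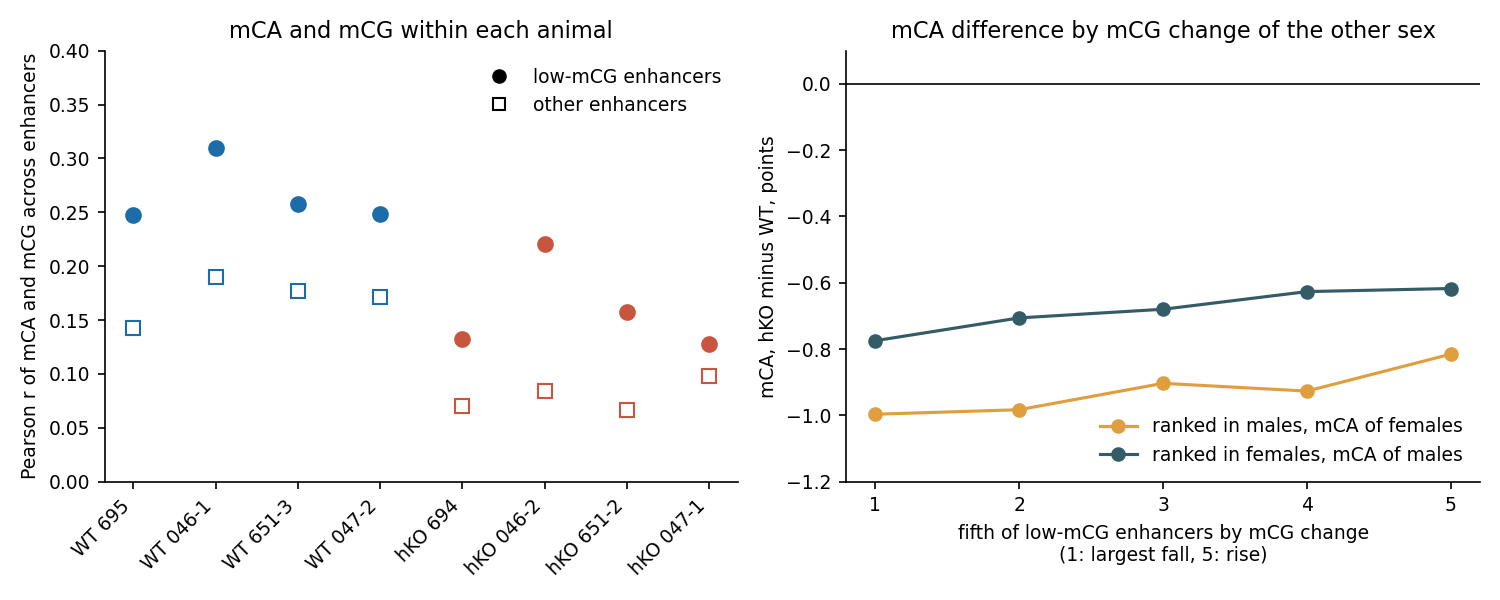
Left: Pearson's r between mCA and mCG across enhancers within each animal, for low-mCG (filled) and other enhancers (open), WT in blue and hKO in red. Right: mCA difference, hKO minus WT in points, in 5 equal groups of low-mCG enhancers sorted by their mCG change in the other sex. The WT r values of low-mCG enhancers run from 0.248 to 0.309 and those of hKO from 0.128 to 0.221; the mCA difference goes from -0.997 to -0.815 and from -0.775 to -0.617.

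Counted by the direction of the means, mCA and mCG were both lower in hKO in 1956 low-mCG enhancers (76.9%, against 77.3% of all enhancers). mCA was lower and mCG higher in 437 (17.2%, against 20.5% of all). mCA was higher and mCG lower in 100 (3.93%, against 1.35%), and both were higher in 50 (1.97%, against 0.877%). The genotypes were fully apart, with hKO below, for both marks in 82 (3.22%), against 4.56% of all. The 487 enhancers with a higher hKO mean of mCG held a median of 0.855% mCA in hKO and 1.44% in WT. The 150 with a higher hKO mean of mCA were low in mCA in WT, with a median of 0.723%, and had a median mean mCG of 28.3%. Their low WT mCA is in part built in, since the same WT values picked them. Enhancers whose mCG mean was higher in hKO thus still held less mCA in hKO at the median.

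CG density, which did not enter the choice, was higher in these enhancers. The deposited table gives, beside each group mean, a second mean whose ratio to it was the same in both genotypes within 1.1e-06 for CG; it was read here as the number of CG sites per base, which the header does not state, nor whether sites are counted on both strands. On that reading the low-mCG enhancers had a median of 2.76 CG sites per 100 bases (interquartile range 1.90 to 3.71), and the other enhancers 2.13 (1.57 to 2.74). Above 3.98 sites, the 95th percentile of all enhancers, lay 20.0% of the low-mCG enhancers and 3.73% of the others. The median fell from 5.49 sites in the bin below 5% mCG to 2.46 in the bin from 35% to 40%. CA sites were nearly as frequent in both groups, with medians of 15.3 and 15.7 per 100 bases.

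In the low-mCG enhancers CG density went with mCG and had almost no linear relation to mCA. Over the low-mCG enhancers r was -0.395 between CG density and mean mCG, and 0.00487 between CG density and WT mCA. Over the other enhancers these were -0.0677 and 0.148. In 5 equal groups by density, from the sparsest to the densest, hKO mCG was 88.4%, 86.7%, 85.1%, 83.9% and 81.2% of WT. hKO mCA was 55.6%, 54.7%, 55.5%, 55.6% and 56.8% of WT. WT mCA was 1.64%, 1.90%, 1.89%, 1.90% and 1.72%, lower at both ends than between them. The sparsest group held 31.0% mCG in hKO and 35.1% in WT, and the densest 22.5% and 27.7%. In points the mCG difference was -4.05 in the sparsest and -5.21 in the densest group. The kept share of WT mCG thus fell from group to group. WT mCG itself was 35.1%, 35.1%, 35.4%, 33.0% and 27.7%, so the starting level was lower only at the dense end.

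**Figure D5:**
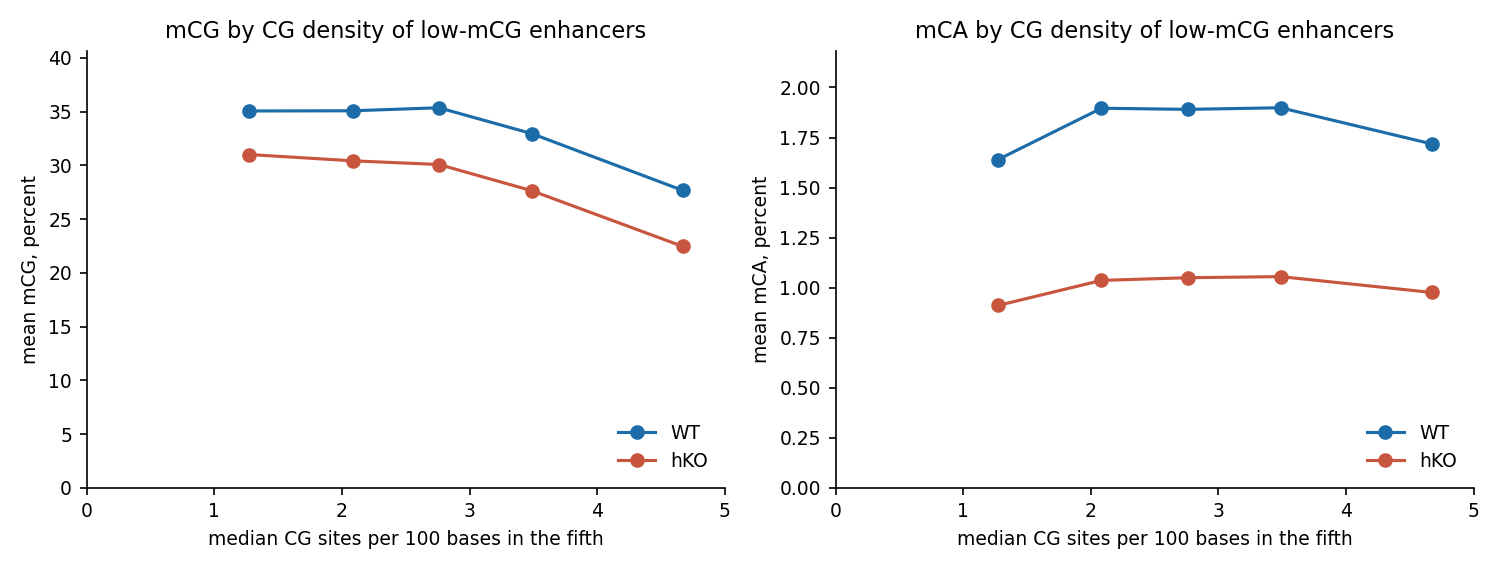
Mean mCG (left) and mean mCA (right) of the low-mCG enhancers in 5 equal groups by CG density, plotted at the median number of CG sites per 100 bases of each group; points are means over 4 animals of each genotype. WT mCG is 35.1% in the sparsest and 27.7% in the densest group, whereas WT mCA is 1.64% and 1.72% there and 1.89% to 1.90% in the groups between.

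The enhancers of the table have identifiers and no coordinates or gene names, so 2 that fell and 2 that rose are named. Those that fell had the largest mCA falls among called enhancers without overlap of the genotypes. enh.40628 held 3.35%, 2.72%, 6.04% and 7.20% mCA in WT 695, 046-1, 651-3 and 047-2, and 0.488%, 0.595% and 0.476% in hKO 694, 046-2 and 651-2, with 0 listed in hKO 047-1. Every WT animal lay far above every hKO animal. The difference was -4.44 points (SE 0.815; limma adjusted p = 0.0106), while its mCG of 17.1% in hKO and 23.4% in WT did not pass limma (adjusted p = 0.458). enh.19000 held 8.17%, 4.82%, 6.06% and 4.50% mCA in the WT animals and 0.587%, 2.54%, 2.10% and 1.06% in the hKO animals, in the same order. Its groups did not overlap, and the difference was -4.32 points (SE 0.783; limma adjusted p = 0.0106), with 22.5% mCG in hKO and 33.8% in WT (limma adjusted p = 0.334).

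The 2 enhancers with a higher mCA call overlapped between genotypes. enh.39670 held 0.299%, 0.316%, 1.30% and 1.06% mCA in the WT animals and 1.71%, 1.20%, 1.85% and 1.54% in the hKO animals. WT 651-3 lay above hKO 046-2. The difference was 0.832 points (SE 0.299; limma adjusted p = 0.0378). enh.24280 held 0.377%, 0, 0.642% and 0.190% in the WT animals and 0.451%, 0.827%, 1.16% and 1.21% in the hKO animals, and WT 651-3 lay above hKO 694. The difference was 0.609 points (SE 0.230; limma adjusted p = 0.0441). Neither call was made when limma was run without a trend of the variance with the level, and mCG of neither passed limma (adjusted p = 0.404 and 0.811).

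Low values and incomplete conversion bear on the mCA level. mCA was listed at 0 in 406 low-mCG enhancers (16.0%) in hKO 047-1 and in 202 (7.94%) in WT 047-2, against 5 to 81 in each of the other 6 animals. In the other enhancers these shares were 5.04% and 1.64%. Without the 611 enhancers that had a 0 in any animal, the mCA difference was -0.879 points (exact permutation p = 0.0286, adjusted 0.0381). Methylation at CC dinucleotides, where little methylation is known, was used as a reading of incomplete conversion. It was taken from shallow cortex libraries of the same age, and was 0.267% ± 0.0599 over 7 hKO animals and 0.362% ± 0.0602 over 11 WT animals (SD). With these means subtracted, the low-mCG enhancers held 0.739% mCA in hKO and 1.45% in WT, or 51.1% of WT, against 52.6% in the other enhancers. In the 3 animals of each genotype that were also sequenced deeply, CC methylation was 0.322% in hKO and 0.354% in WT. The subtracted means thus rest largely on other animals. Whether CC methylation reads conversion alone was not tested, and the Lambda values listed for the same shallow libraries were not used.

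The same threshold was applied to genes, which then held less mCG than the low-mCG enhancers. In 662 of 21056 genes with complete values the mean mCG over the gene was below 40%. These genes held 0.923% ± 0.125 mCA in the hKO animals and 1.51% ± 0.293 in the WT animals (SD, n = 4 each), or 61.1% of WT, against 56.4% in the other genes. Their mCG was 19.6% ± 1.09 in the hKO animals and 23.1% ± 1.84 in the WT animals (SD, n = 4 each), or 84.8% of WT, against 97.2% in the other genes. These shares were not tested.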

How the data were processed

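The authors deposited 1 fraction of methylated cytosines per region, context and animal, at CA and CG sites, and their own group means. BS-Seeker2, bedtools and the mm9 genome are listed in the submitters' processing notes, without roles or versions. The authors also deposited for each genotype a mean signal per region that scales with the density of sites, which was used only for its ratio to the group mean. Fractions were multiplied by 100; no counts or coverage came with them, so no coverage minimum, weight or counting interval was applied, and precision rests on the 4 animals of each genotype.

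The low-mCG enhancers, the comparisons and the rule for named enhancers were chosen with earlier results of these data known. The named enhancers are the 2 largest mCA falls and rises among calls without overlap of the genotypes, or, where none passed, among all calls. Values per animal were compared by exact two-sided permutation of the difference in means (Benjamini-Hochberg over 8 comparisons). The 3 of these on mCG use the values that chose the enhancers and are given without a test. The adjusted p over the other 5 is given too, a choice made after seeing the data. Of those 5, both slopes are taken along the mean mCG that chose the enhancers. Single enhancers were tested with limma 3.58.1 (R 4.3.3; eBayes with a trend, threshold 0.05) over 32600 enhancers. Python 3.11.15, numpy 2.4.6, pandas 2.3.3, scipy 1.17.1 and matplotlib 3.10.9 were used. The scripts were tested on simulated data with the real levels and spread; 92 of 100 low-mCG enhancers with mCA raised 4-fold were recovered.

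Alternatives were thresholds of 30% and 50%, choice of enhancers on WT, on hKO or on the other sex, medians, a logit scale, library medians subtracted, no variance trend, sex as covariate, title number as block, each sex alone, enhancers with a 0 left out, and each animal left out. Choice on the 4 hKO animals or on WT animals of 1 sex was added after seeing the data.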

Additional observations from a re-analysis of the deposited data

Results flagged for a closer look

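In 4 of 20 groups of 4 animals, 1 animal stood apart from its group by Dixon's test at 95%, where chance alone flags about 1 group in 20. The groups share animals and measures. hKO 651-2 held 1.19% mCA in the low-mCG enhancers, above the other 3 hKO animals at 0.918% to 0.963%. The same animal had mCA in these enhancers at 77.0% of that in the other enhancers, against 73.8% to 74.0% in the other hKO animals. WT 651-3 had mCG at 53.6% of that in the other enhancers, against 51.1% to 51.5% in the other WT animals. In WT 046-1, mCG lay -30.1 points from the other enhancers, against -31.1 to -31.2 in the other WT animals. The 2 animals titled 651 had the highest mCA of their genotype, and both are female. Without hKO 651-2 the mCA difference was -0.864 points, and without WT 651-3 it was -0.668, both with no overlap of the genotypes.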

How the results depend on the processing

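Under every alternative run, mCA and mCG of the low-mCG enhancers were lower in hKO, the mCG share was lower, and the median enhancer kept 51.7% to 61.1% of WT mCA. With 4 animals against 4, only p = 0.0286 could pass after adjustment, and depth per enhancer is unknown, so small differences were not detectable.

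Values are given as hKO minus WT in the order mCA, mCG, mCA gap to the other enhancers and mCG share of the other enhancers; the mCG values come from the mark that chose the enhancers and carry no test. Chosen on the 4 WT animals they were -0.744, -2.73, 0.322 and -1.31, with a slope difference of -0.116. There mCA, its gap and the slope kept an exact permutation p = 0.0286. Their adjusted p was 0.0571 over 8 comparisons and 0.0476 over the 5 that do not test mCG. Settings of 2 animals against 2 cannot pass: males alone gave -0.681, -4.25, 0.263 and -4.21 (slope -0.163), and females alone -0.925, -5.55, 0.263 and -5.43 (slope -0.171), with 0 enhancers called lower and 0 higher in mCA by limma in each. Chosen on males and measured in females the values were -0.963, -5.68, 0.224 and -5.38, and the reverse gave -0.695, -4.61, 0.246 and -4.75. Chosen on WT males and measured in females they were -0.920, -5.06, 0.268 and -4.35, and on WT females, measured in males, -0.639, -4.08, 0.303 and -3.89.

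The animals share title numbers. Between animals of the same number, deviations from the group means correlated by 0.00417 to 0.0414 over 32600 enhancers. That correlation does not compare the levels of whole libraries, which the permutation tests use. The animals titled 651 had the highest mCA and the highest mCG of their genotype in the low-mCG enhancers. Whether the numbers pair the animals was not settled, and the main tests leave them out. With the replicate block the values were -0.803, -4.90, 0.263 and -4.82, with a slope difference of -0.167; the smallest exact p of 16 arrangements is 0.125 (adjusted 0.143). limma with the block called 934 low-mCG enhancers lower in mCA (36.7%, against 52.9% of all enhancers).

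The mCG gap in points to the other enhancers was -1.38 at a threshold of 50% and -3.42 when chosen on the 4 hKO animals, and 1.27 when chosen on the 4 WT animals. The mCA share, which never passed, turned sign to 2.15 at a threshold of 30%, 1.34 chosen on the 4 WT animals, 1.16 chosen on WT females and measured in males, 0.783 in males alone and 0.738 without enhancers with an mCA of 0. The relative slope was -3.98 without enhancers with an mCA of 0, the 1 of 16 alternatives in which it passed. It was -0.847 at a threshold of 50% and -5.26 at 30%.

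Enhancers called lower in mCA numbered 205 of 893 at a threshold of 30%, 2330 of 6321 at 50% and 1193 of 3366 chosen on the 4 hKO animals. These are the calls of the main fit in sets of other sizes, and that fit called 48.9% of all enhancers lower. With library medians subtracted 1 of the 2543 was called lower (0.0393%, against 0.135% of all enhancers). Those called higher numbered 41 with library medians subtracted (1.61%, against 0.791% of all enhancers) and 0 without a variance trend (0% of all). The 41 are in part built in by the subtraction in points. There was 1 each on the logit scale, at 30%, chosen on the 4 WT animals and without enhancers with an mCA of 0. The logit and the main fit each called 0.00613% of all enhancers higher.

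Leaving out each animal in turn gave -0.869 to -0.668 for mCA, -5.47 to -4.03 for mCG, 0.257 to 0.269 for the mCA gap, -5.13 to -4.24 for the mCG share and -0.174 to -0.160 for the slope. It gave -1.36 to -0.806 for the mCG gap and -0.916 to 0.955 for the mCA share, positive without WT 651-3 (0.955), hKO 694 (0.0796), hKO 046-2 (0.0941) or hKO 047-1 (0.156). Between 317 and 909 of the 2543 enhancers were called lower in mCA, 0 to 2 higher, and 0 to 1 lower in mCG (1 without WT 047-2). The share of all enhancers called was not taken for these fits.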
